A study of Mus musculus with 4 samples.

Results

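The enzymes that build cholesterol and fatty acids, with the SREBP transcription factors that control them, were examined as a list of 35 named genes. All 35 were among the 40213 gene symbols in the files and all 35 were among the 11588 genes tested. The rule names each gene and uses no measured value, though the list was drawn up with earlier results of these data known. The list holds 19 genes of sterol synthesis and transport, 5 genes for SREBP and its control and 11 genes of fatty acid synthesis. The series measured RNA in RAW264.7 cells, a mouse macrophage line transformed by a leukaemia virus, collected 48 h after treatment of the attached cells. The groups, Gel (n = 2 libraries) and CuNZ@Gel (n = 2 libraries), were read from the sample titles as a gel (a hydrogel, per the series title) without and with CuNZ, an abbreviation that the labels leave unexplained. The treatment text names CuNZ@Gel alone, so what Gel cells received rests on the titles. The labels give no untreated cells and do not state whether replicates were separate cultures. The p-values therefore measure only how far these libraries differ, a spread that may be technical.

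Cells make cholesterol from acetyl-CoA through mevalonate, isoprenoids, squalene and lanosterol. When sterols in the endoplasmic reticulum run low, SCAP escorts SREBP proteins to the Golgi, where proteases free the part that enters the nucleus and binds promoters of the pathway. INSIG proteins hold SCAP back when sterols are plentiful. SREBP2 is best known for the sterol genes and SREBP1 for the fatty acid genes. In macrophages the pathway supplies membrane for growth and phagocytosis, and its intermediates also act as signals in inflammation.

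Levels are given as scaled CPM, CPM divided by 1 further factor per library, and were recovered from the deposited log2(scaled CPM + 1) values. Library totals recovered from these values ranged from 13716000 to 14880000 reads. Libraries of a group correlated across genes at a Pearson r of 0.995, against 0.930 to 0.938 between groups, where genes are not independent replicates. Of 10 macrophage markers, 9 reached at least 39.2 scaled CPM in every library and Mertk stayed at or below 0.883. The summed level of these markers was 5665 and 5833 scaled CPM in Gel and 9164 and 8924 in CuNZ@Gel, and what part this difference has in the results on the pathway was not tested. Most of the rise in the sum was Lyz2, which went from a mean of 3079 to 5888. Of the 9 markers tested, 6 rose, Cd68 and Fcgr1 fell (log2 changes -0.23 and -0.82) and Spi1 did not pass. Markers of T cells, B cells, fibroblasts, epithelium, endothelium, hepatocytes and adipocytes summed to at most 5.61 scaled CPM for any type in any library. The 4 osteoclast markers summed to 452 and 460 in Gel and 523 and 524 in CuNZ@Gel, nearly all of it Ctsk, with Calcr at 0 in every library. Ctsk rose (log2 change 0.22), Ocstamp rose from a mean of 0.256 to 2.37 scaled CPM and Acp5 fell (-0.56), and the part of these genes in the results was not tested.

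Promoter sequence is shown for 5 members, because SREBP acts through short elements close to the start of transcription together with the factors NF-Y and Sp1. Each line holds the 200 bases before the start, 5′ to 3′ on the gene's strand, from the RefSeq promoter table of build GRCm38.p6, an older build than the GRCm39 named for the files. Capitals mark matches, on either strand, to TCACNCCAC (a sterol regulatory element), CCAAT (NF-Y), GGGCGG (Sp1) or CACGTG (an E-box). Hsd17b7 (chr1:169969206-169969405, minus strand), Idi1 (chr13:8885406-8885605, plus strand) and Cyp51 (chr5:4104698-4104897, minus strand) are shown as the 3 most raised members with a single promoter in the table. Hmgcs1 (chr13:119690151-119690350, plus strand) is shown as the member with a match to TCACNCCAC and Ebp (chrX:8193513-8193712, minus strand) as the most lowered member.
Hsd17b7: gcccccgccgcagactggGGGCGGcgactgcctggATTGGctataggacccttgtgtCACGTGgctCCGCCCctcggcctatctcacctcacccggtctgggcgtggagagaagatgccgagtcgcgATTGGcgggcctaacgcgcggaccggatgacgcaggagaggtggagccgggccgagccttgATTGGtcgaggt
Idi1: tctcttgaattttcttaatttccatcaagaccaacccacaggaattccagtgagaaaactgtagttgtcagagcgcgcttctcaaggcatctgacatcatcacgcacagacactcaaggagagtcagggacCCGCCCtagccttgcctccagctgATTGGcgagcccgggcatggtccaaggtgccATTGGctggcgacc
Cyp51: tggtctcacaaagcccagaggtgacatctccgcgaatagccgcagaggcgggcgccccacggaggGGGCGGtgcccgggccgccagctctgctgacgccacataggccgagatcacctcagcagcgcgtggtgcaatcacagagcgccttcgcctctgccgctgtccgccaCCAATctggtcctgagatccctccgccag
Hmgcs1: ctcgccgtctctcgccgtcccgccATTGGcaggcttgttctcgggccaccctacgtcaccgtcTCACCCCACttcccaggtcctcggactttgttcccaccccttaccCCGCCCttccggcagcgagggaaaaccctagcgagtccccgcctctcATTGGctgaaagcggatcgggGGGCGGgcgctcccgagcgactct
Ebp: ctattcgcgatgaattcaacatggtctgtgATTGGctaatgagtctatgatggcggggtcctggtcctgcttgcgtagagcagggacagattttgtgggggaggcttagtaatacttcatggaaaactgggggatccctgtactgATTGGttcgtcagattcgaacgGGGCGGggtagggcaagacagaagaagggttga

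The table held promoters for 28 of the 35 members, 37 windows of 300 bases that run from 250 bases before to 50 after the start. CCAAT was found in the windows of 23 of the 28 genes, against 41.1% of all 27025 genes in the table. GGGCGG was also found in 23 of the 28, against 38.2% of all genes. CACGTG was found in 6, against 8.09%. TCACNCCAC was found in Hmgcs1 alone, 137 bases before its start, against 1.44% of all genes. These shares are over all genes in the table, tested here or not, and were not computed for the tested genes alone. Ebp, the only lowered member shown, carried CCAAT and GGGCGG as did the raised Hsd17b7, so that these letters did not separate these genes. Pmvk, the other lowered member, had CCAAT but no GGGCGG in its windows, as did the raised Fasn. A match describes the sequence and is no evidence of binding. Only these exact strings were searched, so a window without TCACNCCAC may still hold a sterol regulatory element of another sequence.

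Most members were higher in CuNZ@Gel. With limma and Benjamini-Hochberg adjustment over all tested genes at 0.05, 28 of the 35 rose, 2 fell (Pmvk and Ebp) and 5 did not pass (Mvk, Scap, Elovl1, Elovl5 and Fads1). Over all tested genes 32.2% rose and 34.8% fell, and the counts by pathway step below stand beside these shares. When a fold above 1.5 was required (limma's treat test), 15 members rose and none fell, where 8.76% and 8.11% of all genes did. For 30 members both CuNZ@Gel libraries lay above both Gel libraries, which held for 39.8% of all genes. The median log2 change was 0.67 over the members and -0.03 over all tested genes, whose middle range from quartile to quartile was -0.43 to 0.38. A log2 change here is CuNZ@Gel minus Gel of log2(scaled CPM + 1), so that changes at low levels come out too small.

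**Figure D1:**
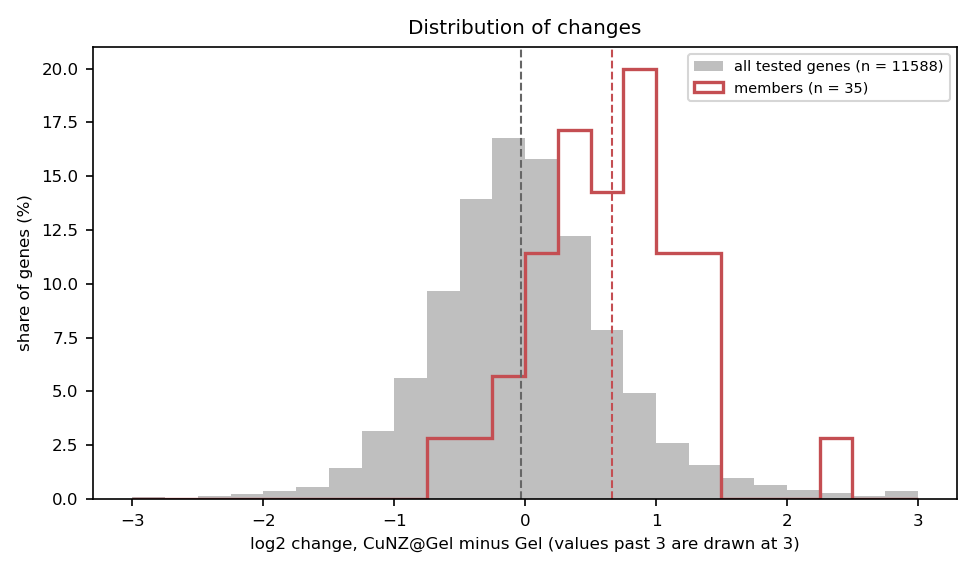
Histogram of the log2 change, CuNZ@Gel minus Gel, for all 11588 tested genes (grey) and the 35 members (red outline), each as a percent of its own number, in bins of equal width, with values past 3 drawn in the end bins. Dashed lines mark the medians of -0.03 and 0.67.

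The summed level of the 35 members was 2486 and 2530 scaled CPM in the Gel libraries and 4266 and 4115 in the CuNZ@Gel libraries. For the 19 sterol genes the sums were 907 and 911 against 1577 and 1606. For the 11 fatty acid genes they were 1353 and 1383 against 2366 and 2196. In bulk RNA a change in RNA per cell and a change in the share of cells that express a gene cannot be told apart.

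**Figure D2:**
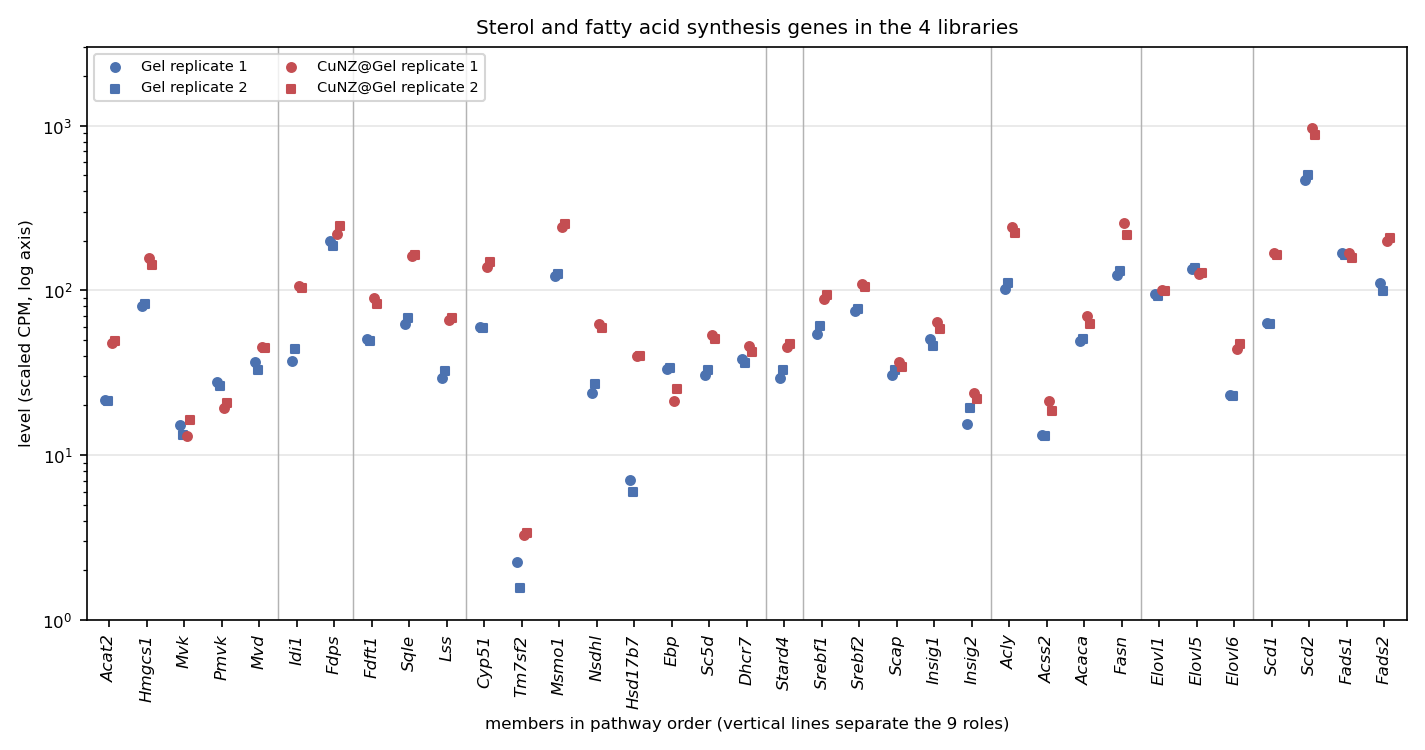
Level of each member in each library, in scaled CPM on a log axis, with Gel in blue and CuNZ@Gel in red, circles for replicate 1 and squares for replicate 2. Hsd17b7 shows the widest gap between the groups, and Mvk and Fads1 the overlapping ones.

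In the mevalonate steps the response was uneven from enzyme to enzyme: 3 of 5 genes rose, 1 fell and 1 did not pass. Acat2, the cytosolic thiolase that joins acetyl-CoA units, had 21.7 and 21.2 scaled CPM in Gel and 48.1 and 49.2 in CuNZ@Gel. Hmgcs1, which makes HMG-CoA, had 80.1 and 82.9 against 156 and 142. The groups were well apart for both genes, with log2 changes of 1.14 ± 0.0924 and 0.86 ± 0.0703 (SE) and limma adjusted p of 6.65e-10 and 7.33e-10. The kinases that phosphorylate mevalonate did not follow. Mvk, mevalonate kinase, had 15.2 and 13.3 in Gel and 13.0 and 16.2 in CuNZ@Gel, so the groups overlapped (log2 change 0.03 ± 0.13 SE, limma adjusted p = 0.848). Pmvk, phosphomevalonate kinase, was lower in both CuNZ@Gel libraries, with 27.9 and 26.2 against 19.4 and 20.8 (log2 change -0.41 ± 0.105 SE, limma adjusted p = 0.00178). Mvd, the decarboxylase that completes isopentenyl pyrophosphate, rose from 36.6 and 32.8 to 45.3 and 44.5 (log2 change 0.36). Pmvk no longer passed with scaling by total reads only (-0.23, limma adjusted p = 0.0606) or corrected for transcript length and GC content (-0.09, limma adjusted p = 0.387), and Mvd stood at 0.65 after that correction.

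Of the isoprenoid enzymes, Idi1, the isomerase that makes the reactive allylic unit, had the third largest rise in the list, from 37.2 and 44.3 to 106 and 103 scaled CPM. Its log2 change was 1.34 ± 0.0843 (SE, limma adjusted p = 1.14e-11). Fdps, which builds farnesyl pyrophosphate at the branch towards sterols and prenylated proteins, started high, at 199 and 186, and reached 219 and 247. The gap between the Fdps groups was small, at a log2 change of 0.27 ± 0.0681 (SE, limma adjusted p = 0.00141), and without the filter on low values it did not pass (limma adjusted p = 0.0590). Another gene model, Gm43738, shares 26.7% of the exon bases of Fdps on the same strand.

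The steps committed to sterols rose together: 3 of 3 genes from squalene to lanosterol passed, with log2 changes from 0.78 to 1.30. Sqle, squalene epoxidase, a slow step of the pathway, had 62.9 and 68.2 scaled CPM in Gel and 161 and 163 in CuNZ@Gel. This was a 2.48-fold difference of the means (limma adjusted p = 1.02e-12), and the spread within each group was small beside it. Lss, the cyclase that forms lanosterol, had 29.6 and 32.3 against 66.4 and 67.8. After the length and GC correction Lss stood at 0.77 in place of 1.09. Fdft1, squalene synthase, had 50.5 and 49.3 against 89.8 and 83.0, and fell short of the 1.5-fold test (log2 change 0.78, limma treat adjusted p = 0.0571). In gene models 18.3% of the Fdft1 exon bases overlap Ctsb on the opposite strand, and use of strand in the counting is not given in the sources used here. Ctsb went from 2358 ± 11.6 scaled CPM in Gel to 2265 ± 45.5 in CuNZ@Gel (mean ± SD, n = 2 libraries each), a difference that did not pass (limma adjusted p = 0.414).

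Between lanosterol and cholesterol 7 of 8 genes rose and 1 fell. Hsd17b7, a keto reductase that acts in the removal of methyl groups from the sterol ring, changed most of all members. It had 7.03 and 5.99 scaled CPM in Gel (97 and 77 reads) and 39.8 in each CuNZ@Gel library (631 and 627 reads). The difference was 6.11-fold, with a log2 change of 2.44 ± 0.12 (SE, limma adjusted p = 2.38e-13), above 99.4% of all tested genes. Its partners in that reaction sequence had smaller log2 changes. Msmo1, the methyl oxidase, had 121 and 125 against 243 and 251, and Nsdhl, the decarboxylating dehydrogenase, had 23.9 and 27.1 against 62.2 and 58.8. Their log2 changes were 1.00 and 1.22, each with separate groups (limma adjusted p = 1.22e-11 and 2.07e-10). Whether the change of Hsd17b7 differed from theirs was not tested.

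Cyp51, the lanosterol demethylase, had 60.1 and 58.9 scaled CPM in Gel and 138 and 149 in CuNZ@Gel, a 2.42-fold difference. Ebp, Sc5d and Dhcr7 changed less than Cyp51 or in the other direction, whereas Hsd17b7 changed more. Ebp, the isomerase that shifts the ring double bond, was lower in CuNZ@Gel, with 33.3 and 33.6 against 21.4 and 25.1 (log2 change -0.51 ± 0.103 SE, limma adjusted p = 1.81e-04). Ebp stood at -0.33 with libraries scaled by total reads only and at -0.33 after the length and GC correction, and passed in both fits. Sc5d, the desaturase that follows it, rose from 30.4 and 32.7 to 53.6 and 50.3. Dhcr7, the last reductase of one branch, had 38.5 and 36.3 against 46.2 and 42.5 (log2 change 0.24, limma adjusted p = 0.0221).

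Tm7sf2, a sterol reductase that shares its reaction with the lamin B receptor, was the least abundant member. It had 2.25 and 1.56 scaled CPM in Gel and 3.28 and 3.37 in CuNZ@Gel, from 31, 20, 52 and 53 reads (log2 change 0.59, limma adjusted p = 0.0102). The gene of the receptor is counted with the other pathway genes below, so the rise of Tm7sf2 alone does not describe their shared step. The calls of Dhcr7 and Tm7sf2 were not stable to the loss of a library. Without Gel replicate 2 the limma adjusted p was 0.143 and 0.119. Dhcr7 also lost its call without CuNZ@Gel replicate 1 (limma adjusted p = 0.15) and Tm7sf2 without CuNZ@Gel replicate 2 (0.0548), and without the low-value filter they reached 0.0624 and 0.0714. Tm7sf2 shares 12.1% of its exon bases with Vps51 on the same strand, and Vps51 fell (log2 change -0.55). Cyp51 shares 3.76% with Akap9 on the opposite strand, and Akap9 rose (0.89). Stard4, which carries cholesterol between membranes and is itself an SREBP target, rose from 29.6 and 32.8 to 45.2 and 47.3 (log2 change 0.56, or 0.32 after the length and GC correction).

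**Figure D3:**
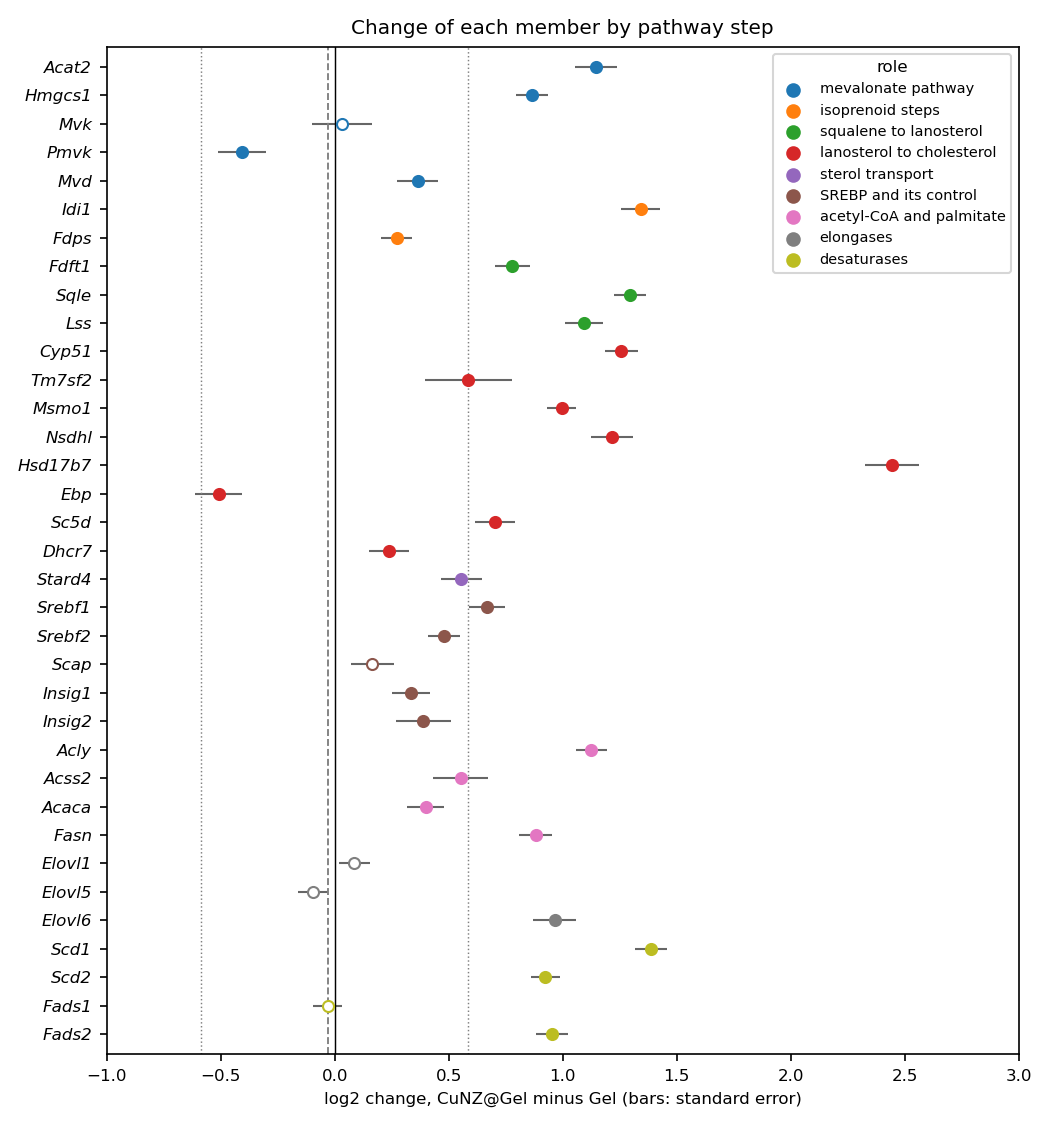
Log2 change of each member, CuNZ@Gel minus Gel, with its standard error from limma, in pathway order and coloured by role; filled points passed the test and open points did not. Dotted lines mark a fold of 1.5 and the dashed line the median of all tested genes at -0.03; Pmvk and Ebp are the filled points below 0.

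Of the genes for SREBP and its control, 4 of 5 rose and none passed the 1.5-fold test. Srebf1, which encodes SREBP1, had 54.1 and 60.4 scaled CPM in Gel and 88.6 and 94.1 in CuNZ@Gel. Srebf2, which encodes SREBP2, had 75.3 and 77.2 against 109 and 104. Their log2 changes were 0.67 ± 0.0779 and 0.48 ± 0.0703 (SE, limma adjusted p = 1.87e-07 and 4.09e-06). The ratio of Srebf1 to Srebf2 was 0.719 and 0.782 in Gel and 0.812 and 0.901 in CuNZ@Gel. These ratios did not overlap, but the gap between the groups was smaller than the spread within either group.

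Insig1, the retention protein that is itself induced by SREBP, had 50.8 and 46.2 scaled CPM in Gel and 64.5 and 58.3 in CuNZ@Gel. Its log2 change of 0.33 ± 0.0843 (SE, limma adjusted p = 0.00153) lay below that of 25 other members. Insig2, its less inducible relative, had 15.4 and 19.2 against 24.0 and 21.8 (log2 change 0.39, limma adjusted p = 0.00720), and did not pass without Gel replicate 1 (0.24, limma adjusted p = 0.143) or without the filter (limma adjusted p = 0.0884). The ratio of Insig1 to Insig2 was 3.29 and 2.40 in Gel, which spans the 2.69 and 2.67 of CuNZ@Gel. Scap, the escort itself, had 30.4 and 32.8 against 36.8 and 34.3, a log2 change of 0.16 ± 0.0939 (SE) that did not pass (limma adjusted p = 0.127). Scap passed with libraries scaled by total reads only (0.35, limma adjusted p = 0.00278) and after the length and GC correction (0.21, limma adjusted p = 0.0465). A gene model on the opposite strand covers 13.2% of the Scap exon bases.

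In fatty acid synthesis, 4 of 4 genes from citrate or acetate to palmitate rose. Acly, which cleaves citrate into cytosolic acetyl-CoA, had 102 and 111 scaled CPM in Gel and 243 and 224 in CuNZ@Gel (log2 change 1.12 ± 0.0681 SE, limma adjusted p = 6.52e-12). Fasn, the fatty acid synthase, had 125 and 131 against 255 and 218. The Fasn groups were apart, though its CuNZ@Gel libraries differed by more than its Gel libraries did. Acss2, which activates acetate, rose from 13.3 and 13.1 to 21.2 and 18.5 (log2 change 0.55). Acss2 shares 3.89% of its exon bases with Gss on the opposite strand, and Gss rose (0.71). Acaca, the carboxylase that commits acetyl-CoA to fatty acids, rose least, from 49.3 and 50.4 to 70.3 and 62.1 (log2 change 0.40 ± 0.0822 SE, limma adjusted p = 2.28e-04). Acaca and Fasn have long transcripts, of 9513 and 10050 bases. After the length and GC correction Acaca stood at -0.02 and no longer passed (limma adjusted p = 0.806), and Fasn stood at 0.56 in place of 0.88 but passed (limma adjusted p = 2.63e-07). Over all tested genes, which are not independent, log2 changes and log2 lengths had a Pearson r of 0.286.

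Among the elongases, 1 of 3 rose, near the 32.2% of all tested genes that did. Elovl6, which extends palmitate to stearate, had 23.0 and 22.9 scaled CPM in Gel and 44.3 and 47.2 in CuNZ@Gel (log2 change 0.96 ± 0.0931 SE, limma adjusted p = 1.09e-08). Its change was 0.66 after the length and GC correction, and it still passed. Elovl1, which extends very long saturated chains, had 95.1 and 92.7 against 99.99 and 99.4, and Elovl5, which extends polyunsaturated chains, had 134 and 137 against 126 and 128. Neither passed (log2 changes 0.09 and -0.10, limma adjusted p = 0.276 and 0.198). Elovl1 passed with libraries scaled by total reads only (0.27) and after the length and GC correction (0.29). Elovl5 was 0.09 with total reads only, which turned its direction. The ratio of Elovl6 to Elovl5 was 0.172 and 0.167 in Gel and 0.352 and 0.369 in CuNZ@Gel.

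Of the desaturases, 3 of 4 rose. Scd1, a stearoyl-CoA desaturase that makes oleate, had 63.7 and 62.3 scaled CPM in Gel and 170 and 163 in CuNZ@Gel, a 2.64-fold difference (limma adjusted p = 2.5e-13). Scd2, its more abundant relative in these cells, had 468 and 501 against 968 and 873, a 1.90-fold difference. Per kilobase of the longest transcript, Scd2 had the highest level of all members in both groups, at 88.8 scaled CPM in Gel and 169 in CuNZ@Gel. The ratio of Scd1 to Scd2 was 0.136 and 0.124 in Gel and 0.175 and 0.187 in CuNZ@Gel, with no overlap. These genes are paralogs, so reads may have been shared in counting.

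Fads1 and Fads2 make the polyunsaturated fatty acids and lie beside each other in the genome. Fads2, the desaturase that starts the chain, rose from 111 and 98.5 to 199.99 and 207 scaled CPM (log2 change 0.95 ± 0.0695 SE, limma adjusted p = 1.31e-10). Fads1, which acts later, had 168 and 163 in Gel and 168 and 156 in CuNZ@Gel, so its groups overlapped (log2 change -0.03, limma adjusted p = 0.683). The ratio of Fads2 to Fads1 was 0.661 and 0.603 in Gel and 1.19 and 1.32 in CuNZ@Gel. With libraries scaled by total reads only the Fads1 change was 0.16 (limma adjusted p = 0.0387), in the other direction.

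**Figure D4:**
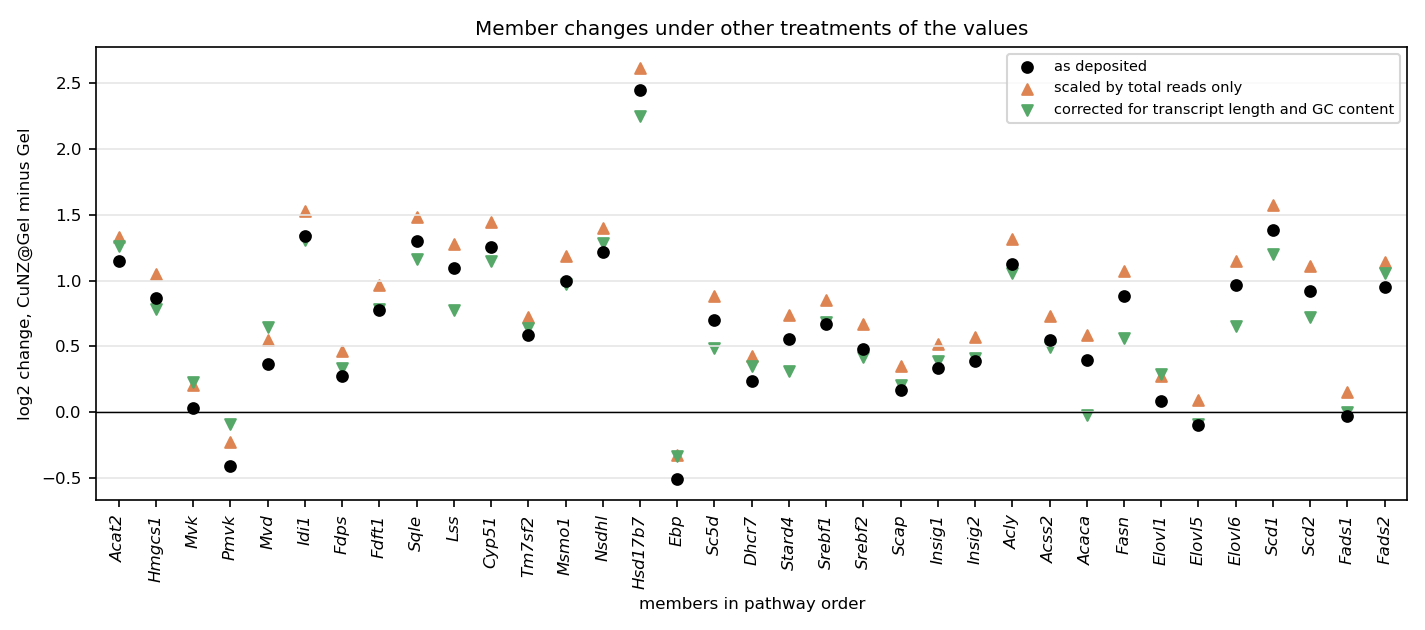
Log2 change of each member, CuNZ@Gel minus Gel, from the deposited scaling (black circles), from total reads only (orange triangles) and with length and GC content corrected for (green inverted triangles). Total reads only places members higher, as with Scap at 0.35 in place of 0.16, and the correction moves Acaca from 0.40 to -0.02.

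Other genes of these pathways were listed by function, and their counts stand beside the 32.2% of all tested genes that rose and the 34.8% that fell. Of 10 genes for SREBP processing and INSIG degradation, 2 rose, 3 fell and 5 did not pass (median log2 change -0.06). Erlin2, of a membrane complex that brings proteins to degradation, rose (0.62), while Erlin1, the partner of Erlin2, fell (-0.52). Paqr3, which tethers SCAP to the Golgi, fell from 13.1 ± 0.559 to 7.85 ± 0.308 scaled CPM (SD, n = 2 libraries; log2 change -0.67). Of 9 genes on the isoprenoid branches, 2 rose and 5 fell (median -0.31). Nus1, a subunit of the enzyme that makes dolichol, rose (0.60), its partner Dhdds fell (-0.45), Coq2 of ubiquinone synthesis fell (-0.51) and Ggps1, which makes geranylgeranyl pyrophosphate, rose (0.48).

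Of 9 tested genes of sterol uptake, esterification and remaining synthesis, 4 rose and 3 fell (median -0.01, lowest -0.51, highest 1.54). Past the 1.5-fold test 3 of them rose and none fell, against 8.76% and 8.11% of all tested genes. Soat1, which esterifies cholesterol for storage, rose from 371 ± 0.182 to 527 ± 21.5 scaled CPM (SD, n = 2 libraries), and its change of 0.51 no longer passed after the length and GC correction (0.07, limma adjusted p = 0.184). Of 18 tested genes of other fatty acid synthesis, elongation and activation, 8 rose and 6 fell (median 0.37). Me1, the malic enzyme that supplies NADPH for fatty acid synthesis, rose from 40.3 ± 2.37 to 173 ± 4.00 scaled CPM, a 4.29-fold difference (limma adjusted p = 1.06e-15). Acsl4, which activates polyunsaturated fatty acids, rose 2.23-fold, Lpin1, a phosphatidate phosphatase, 2.01-fold and Slc25a1, the citrate carrier that feeds Acly, 1.62-fold.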

How the data were processed

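RNA was measured in 4 RAW264.7 libraries, 2 labelled Gel and 2 labelled CuNZ@Gel in the sample titles. The authors deposited 1 log2 value per gene symbol and library. Per the submitters' processing notes, the tools included STAR, Salmon, fastp and GATK, and the build was GRCm39. The sources used here do not give tool versions or roles, the annotation, use of strand or molecular identifiers, or how values were normalized. The values behaved as log2(x + 1), with x the CPM divided by a factor per library (0.936 to 1.07). Between 92.7% and 93.5% of values up to 1 were whole multiples of a shared step within 0.02 reads, which gave the reads. For a gene at 0 the expected count may be up to 3 reads (95% confidence), or 0.189 to 0.234 scaled CPM, counting error only.

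Genes with at least 1 scaled CPM in 2 libraries were tested with limma 3.58.1 (R 4.3.3) with a mean-variance trend on the deposited log2 values and the group alone, p-values adjusted over all tested genes by Benjamini-Hochberg at 0.05. A minimum fold of 1.5 was tested with treat. The procedure was tested on simulated data. Alternatives were other scalings, a pseudocount of 0.1, limma-voom on recovered reads, a filter of 5 scaled CPM or none, a replicate block, each library left out, and removal of each library's smooth trend with transcript length and GC content (mgcv 1.9.3). Both properties were those of the longest GENCODE vM21 transcript, found for 95.8% of tested genes and all 35 members. Overlaps between gene models came from the same annotation, whose build is older than that of the files.

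The members and lists were chosen with earlier results of these data known. All members were to be named. From each list of other pathway genes the rule took up to 4 tested genes with the smallest p past the threshold. Some genes of these lists are counted but not reported here by name.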

Additional observations from a re-analysis of the deposited data

How the results depend on the processing

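The number of members raised was 24 to 31 over the alternatives run, against 28 as reported, and the number raised past a minimum fold of 1.5 was 12 to 18, against 15. The counts over all tested genes moved too. With total reads only, where 31 members rose, 5036 of 11601 tested genes rose and 1494 rose past the minimum fold. Without the filter, where 24 members rose, these counts were 3550 and 649 of 19581. In the fit reported they were 3737 and 1015 of 11588. The number lowered was 2, or 1 with total reads only and 1 after the length and GC correction. None was lowered past a minimum fold of 1.5 in any of these fits, and 8.11% of all tested genes were in the fit reported. The median log2 change of the members was 0.85 with total reads only, which moved the median of all tested genes by 0.18, and was 0.72 with limma-voom and 0.72 with a pseudocount of 0.1. With 1 library left out the median of the members ranged from 0.64 to 0.74. The direction turned for Elovl5 (0.092) and Fads1 (0.16) with total reads only and for Acaca (-0.020) and Fads1 (0.0042) after the length and GC correction. With 1 library left out, Mvk ranged from -0.117 to 0.179 and was below 0 when the second replicate of either group was missing. Fads1 ranged from -0.085 to 0.022 and was above 0 without CuNZ@Gel replicate 2. Without the filter, 19581 genes were tested and 4 members lost their call.

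Deviations of the same-numbered libraries from their group means correlated across genes at -0.116. This value, from 2 libraries a group, cannot show whether the replicate numbers mark a shared culture. With the replicate block 28 members were raised and 2 lowered, with 15 past the minimum fold. With the crossed block, added after seeing the data, these counts were 28, 2 and 16. Over all 11588 tested genes, 3589 rose with the replicate block and 4030 with the crossed block. Reads were fewest for Tm7sf2, with 20 to 53 a library, and with 2 libraries a group the error of each member rests on a spread shared across genes.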
